A study of Mus musculus with 4 samples.

Results

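The transcripts described here encode translation elongation factors and a few other proteins whose mRNAs begin with a 5′ terminal oligopyrimidine (TOP) tract, leaving out the ribosomal proteins. They were chosen by name from a list of 10 symbols: Eef1a1, Eef1b2, Eef1d, Eef1g, Eef2, Tpt1, Pabpc1, Naca, Gas5 and Snhg1. A row of the count table matched 8 of the 10, out of 25759 symbols in all, and all 8 had enough counts to be tested among 13306 genes. Gas5 and Snhg1, which carry snoRNAs in their introns, were not analysed here.

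RNA came from alveolar epithelial type II cells, the surfactant-making cells of the lung alveolus, of C57BL/6 mice aged 14 weeks. The wild-type (WT) group had 2 libraries, and so did the group labelled mTOR Tg. The latter came from mice with the genotype Sftpc-mTOR transgenic, described as carrying conditional active mTOR in the epithelium. Sftpc is the surfactant protein C gene of type II cells. The labels do not say how the transgene is switched on, how the cells were isolated, or whether a sample is 1 mouse or a pool. The p-values therefore measure the spread between these samples, which may be technical.

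A TOP tract is a cytosine at the cap followed by a run of pyrimidines. When mTOR complex 1 is active, TOP mRNAs are loaded onto ribosomes. When it is inactive, the protein LARP1 and the 4E-BP repressors hold them back, and LARP1 also stabilises them. This control acts mainly on how well an mRNA is translated, and the counts analysed here measure only how much of each mRNA was present. In elongation, eEF1A brings aminoacyl-tRNA to the ribosome and the eEF1B subunits (from Eef1b2, Eef1d and Eef1g) recharge it with GTP, while eEF2 moves the ribosome along the mRNA.

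The sequences around the annotated start of transcription are shown because a pyrimidine run at the cap names the group. Of the 8 counted genes, 5 matched a RefSeq promoter entry by symbol (GRCm38.p6). Eef1d, Eef1g and Pabpc1 were not analysed here in this respect. Each line gives 30 bases, 5′ to 3′ on the strand of the gene, with 10 bases before the annotated start and 20 from it onward. Capitals mark the longest unbroken run of C and T in the 30 bases.
Eef1a1: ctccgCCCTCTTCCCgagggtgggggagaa
Naca: tcgTTCTCTTaaagaggaaacccggacgcc
Eef2: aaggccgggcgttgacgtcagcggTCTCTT
Eef1b2: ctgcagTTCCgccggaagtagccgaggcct
Tpt1: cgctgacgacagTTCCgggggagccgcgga

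The runs were 10 bases in Eef1a1, 7 in Naca, at least 6 in Eef2, where the run meets the edge of the stretch shown, and 4 in Eef1b2 and Tpt1. Read strictly from the annotated first base on the coding strand, 1 of the 5 (Eef1a1) had at least 5 pyrimidines in a row, against 4.4% of all 32851 promoter entries and 23.9% of 67 entries of cytosolic ribosomal protein genes. None of the 5 had a C at that first base followed by at least 4 more pyrimidines, a pattern present in 2.5% of all entries and 19.4% of the ribosomal protein entries. When the run could begin within 10 bases of the start, 2 of the 5 (Eef1a1 and Naca) had at least 5 pyrimidines. This held for 38.0% of all entries and 53.7% of the ribosomal protein entries. The same 2 had at least 7, against 14.4% of all entries and 37.3% of the ribosomal protein entries. In Eef1a1 the run begins 5 bases before the annotated start and in Naca 7 bases before it, while in Eef2 it begins at base 15. The stretches lie at chr9:78481705-78481734 (minus strand), chr10:128035336-128035365, chr10:81176621-81176650, chr1:63176821-63176850 and chr14:75845246-75845275 (plus strand) in the order printed. An annotated start need not be the start used in these cells.

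The libraries held 18146693 to 21972124 counts. mTOR Tg replicate 1 stood apart: its log2 CPM correlated with the other libraries across genes at r of 0.951 to 0.954, against 0.983 to 0.988 among the other 3. Replicates varied by a biological coefficient of variation of 0.0891 in WT and of 0.325 in mTOR Tg. The 11 type II cell markers, led by Sftpc, were all detected. They summed to 148843 and 126990 CPM in WT and to 119454 and 157505 CPM in mTOR Tg replicates 1 and 2. In mTOR Tg replicate 1, the lowest, the 8 markers of club cells of the airway summed higher, to 172576 CPM. Leukocyte markers summed to 1.04 CPM or less, and Cd3e and C1qb had 0 counts in every library, against a floor of 3 counts (0.137 to 0.165 CPM). Mtor itself, the gene of the transgene, was at 56.8 and 56.7 normalised CPM in WT and 38.9 and 61.8 in mTOR Tg. The labels do not say whether reads of the transgene fall under Mtor, so its counts cannot check the genotypes.

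None of the 8 transcripts passed the test between mTOR Tg and WT. The edgeR quasi-likelihood test called 0 of 8, where it called 0% of all 13306 genes, and at an unadjusted p under 0.05 there were 0 of 8 against a background of 2.46%. DESeq2 also called 0 of 8 (0.0902% of all genes) and limma-voom 0 of 8 (0% of all genes). The 8 genes instead differed by library. In mTOR Tg replicate 1, 7 of them lay above the WT mean, where 50.8% of all genes tested did. In mTOR Tg replicate 2, 6 lay below it, where 50.1% of all genes tested did. That library was within the range of the WT libraries for all but Eef1b2 and Pabpc1. The median log2 fold change over the 8 was 0.10, beside 0.01 over all genes tested. It was -0.08 without mTOR Tg replicate 1, 0.28 without mTOR Tg replicate 2, 0.20 without WT replicate 1 and 0.0090 without WT replicate 2. By library the median lay 0.28 above the WT mean in mTOR Tg replicate 1 and at -0.07 in replicate 2. Between the WT libraries all 8 were lower in replicate 2 than in replicate 1, by a median of -0.16, where 50.2% of all genes tested were lower.

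**Figure D1:**
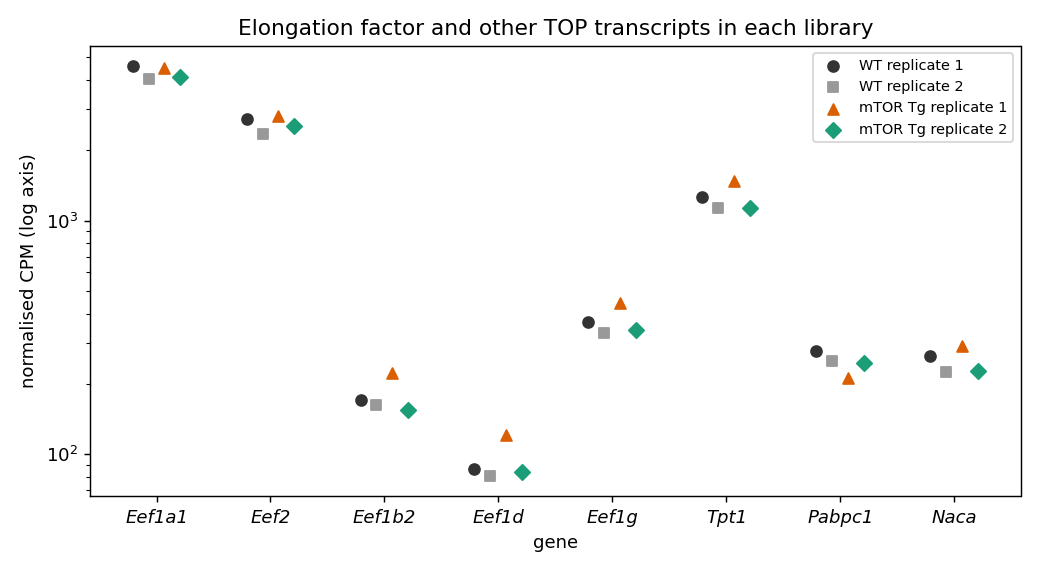
Normalised CPM (log axis) of the 8 transcripts in each of the 4 libraries, 1 point per library. Eef1a1 lies between 4054 and 4578 CPM in every library. In 6 of the 8, all but Eef1a1 and Pabpc1, the triangle of mTOR Tg replicate 1 is the highest point.

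Eef1a1 encodes eEF1A1, the GTPase that delivers aminoacyl-tRNA and one of the most abundant proteins of most cells. It was at 4578 and 4054 normalised CPM in WT replicates 1 and 2 and at 4523 and 4112 in mTOR Tg replicates 1 and 2. Normalised CPM are counts scaled to library sizes that were adjusted with TMM factors. The groups overlapped completely, with the higher and the lower value of each group nearly equal. WT averaged 4316 ± 371 CPM against 4317 ± 290 CPM for mTOR Tg (SD, n = 2 per genotype), and the log2 fold change was 0.00034 (95% interval -0.65 to 0.65, edgeR adjusted p = 0.9998). Its reads made up 0.460% of counts in WT replicate 1 (exact 95% interval 0.456 to 0.463) and 0.420% in mTOR Tg replicate 1 (0.417 to 0.422). These intervals cover counting error only, and are far narrower than the distance between the WT libraries, since replicate 2 of WT was at 0.422%. The paralog Eef1a2, the form of nerve and muscle, had 3 counts in each library, at the floor. Eef1a1 spans chromosome 9 from 78478449 to 78489151 on the minus strand (GRCm38).

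The 3 exchange factor subunits showed the widest upward gaps of mTOR Tg replicate 1 from the WT mean, 0.53 for Eef1d, 0.42 for Eef1b2 and 0.35 for Eef1g on the log2 scale. Eef1b2, which encodes the catalytic subunit eEF1B alpha, was at 171 and 161 CPM for WT and 223 and 154 CPM for mTOR Tg. The high value came from 1 mTOR Tg library, and the other was the lowest of all 4. The log2 fold change was 0.18 (95% interval -0.43 to 0.79, edgeR adjusted p = 0.862). Eef1d, which encodes a second exchange subunit, eEF1B delta, was at 85.9 and 80.7 CPM (WT) against 121 and 83.6 CPM (mTOR Tg). For Eef1d, mTOR Tg replicate 2 lay between the WT libraries. Its log2 fold change of 0.29 (95% interval -0.31 to 0.90, edgeR adjusted p = 0.860) was the highest of the 8. Eef1g, which encodes the scaffold subunit eEF1B gamma, was at 370 and 329 CPM in the WT libraries against 444 and 340 CPM in the mTOR Tg libraries, with a log2 fold change of 0.17 (95% interval -0.40 to 0.73, edgeR adjusted p = 0.862). For all 3 subunits the groups overlapped. The neighbouring gene Naprt shares 277 exonic bases with Eef1d on the same strand, so part of the Eef1d reads could belong to it. Naprt was at 28.2 and 26.0 CPM for WT and 30.5 and 31.7 CPM for mTOR Tg.

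Eef2 encodes the translocase eEF2. It was at 2715 and 2354 CPM (WT) against 2804 and 2538 CPM (mTOR Tg). The mTOR Tg libraries were slightly higher as a pair, but replicate 2 lay below WT replicate 1. WT averaged 2535 ± 255 CPM against 2671 ± 188 CPM for mTOR Tg (SD, n = 2 per genotype), which gave a log2 fold change of 0.08 (95% interval -0.54 to 0.69, edgeR adjusted p = 0.932). The gene lies on chromosome 10 from 81176631 to 81182498 on the plus strand. Eef2k, the kinase that inhibits eEF2 and is itself restrained downstream of mTOR complex 1, was at 13.0 and 14.8 CPM in the WT libraries against 21.7 and 12.9 CPM in the mTOR Tg libraries. Eef2k is singled out here for its role, after its values were seen.

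Tpt1 encodes the translationally controlled tumour protein TCTP, a growth-associated chaperone-like protein and a classical TOP mRNA. It was at 1264 and 1130 CPM for WT and 1473 and 1132 CPM for mTOR Tg. mTOR Tg replicate 2 stood almost on WT replicate 2, and only replicate 1 lay above the WT pair. The log2 fold change was 0.12 (95% interval -0.49 to 0.73, edgeR adjusted p = 0.895). Naca, the alpha subunit of the complex that shields nascent chains at the ribosome exit, showed the same arrangement at a lower level, with 263 and 224 CPM for WT and 291 and 226 CPM for mTOR Tg. Its log2 fold change was 0.09 (95% interval -0.48 to 0.65, edgeR adjusted p = 0.917). Naca has a long muscle form, and the table does not separate isoforms.

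Pabpc1 was the 1 member that was lower in mTOR Tg replicate 1 than in both WT libraries. It encodes the cytoplasmic poly(A)-binding protein, which joins the mRNA tail to the initiation factors at the cap. It was at 277 and 249 CPM (WT) against 212 and 246 CPM (mTOR Tg). Both mTOR Tg libraries lay below both WT libraries, replicate 2 only just, and Pabpc1 was the only 1 of the 8 whose groups did not overlap. Among all genes tested, 17.0% lay below in this way, 17.6% lay above (0 of the 8) and 34.6% had no overlap in either direction, so 1 of 8 is no more than the background. The log2 fold change was -0.20 (95% interval -0.70 to 0.30, edgeR adjusted p = 0.860), and after a correction of each library for exon length and GC content it was 0.0018. That correction used a merged exon length of 6540 bases, which may exceed that of the form present. Leaving out mTOR Tg replicate 1 gave -0.097, and leaving out replicate 2 of that group gave -0.31. Its relative Pabpc4 was at 43.5 and 42.1 CPM in the WT libraries against 41.8 and 45.3 CPM in the mTOR Tg libraries. Several of the 8, Eef1a1, Tpt1 and Naca among them, have processed pseudogenes, and the labels do not say how reads shared with near-identical copies were counted.

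**Figure D2:**
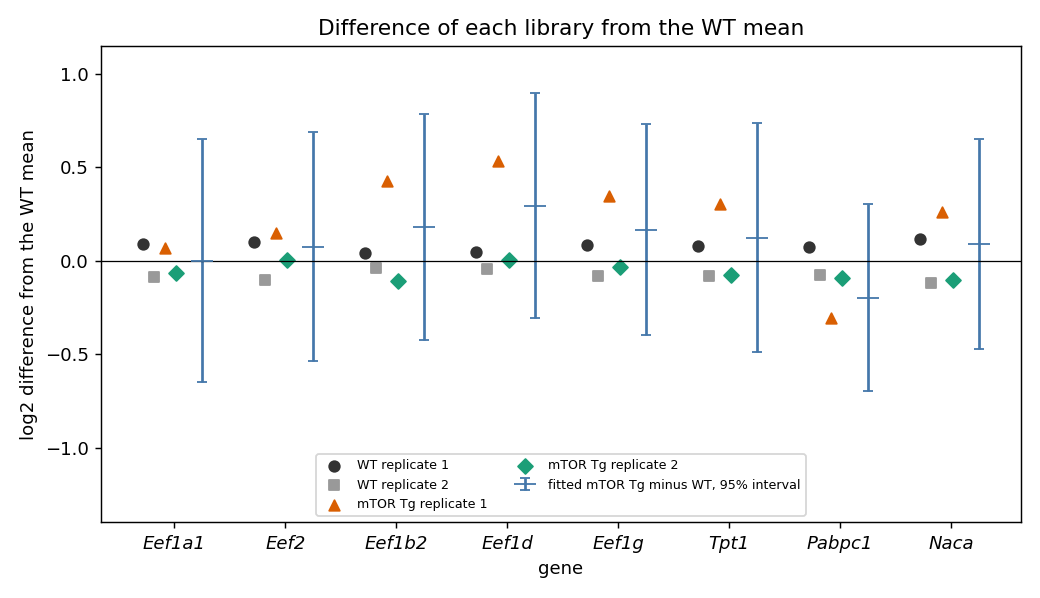
Log2 difference of each library from the WT mean (points) and the fitted log2 fold change with its 95% interval (bars) for the 8 transcripts. Every interval includes 0 and lies within -0.70 to 0.90, and mTOR Tg replicate 1 ranges from -0.31 in Pabpc1 to 0.53 in Eef1d, while replicate 2 stays between -0.11 and 0.01.

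The calls depended on which mTOR Tg library was kept. Without mTOR Tg replicate 2, which leaves replicate 1 alone against WT and assumes that it varies like the WT pair, 4 of the 8 passed the edgeR test, against 45.5% of all genes. Those were Eef1b2 (log2 fold change 0.42, adjusted p = 0.00503), Eef1d (0.53, adjusted p = 0.000963), Eef1g (0.35, adjusted p = 0.0280) and Pabpc1 (-0.31, adjusted p = 0.0428). A count of 4 of 8 is close to the share of all genes. Without mTOR Tg replicate 1, 0 of the 8 passed, against 2.20% of all genes. The count was also 0 of 8 without WT replicate 1 (0.0802% of all genes) and without WT replicate 2 (0.109%). With mTOR Tg replicate 1 left out, the log2 fold changes ran from -0.11 (Eef1b2) to 0.01 (Eef1d), and 2 of the 8 were positive in place of 7 with all libraries (6 when scaled by DESeq2's size factors or by library totals, where Eef1a1 was just below 0). Across both fits, Eef1b2, Eef1g, Tpt1, Naca and Eef1a1 took opposite signs.

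The levels of the 8 spanned a wide range, in nearly the same order in every library. Divided by the merged exon length, the level was 1731 ± 149 normalised CPM per kilobase for Eef1a1 in WT, 762 ± 76.6 for Eef2, 503 ± 39.9 for Tpt1, 134 ± 10.9 for Eef1g and 65.6 ± 2.65 for Eef1b2 (SD, n = 2). Pabpc1 followed at 40.2 ± 2.96, Naca at 35.8 ± 4.09 and Eef1d at 12.8 ± 0.568. Each of the first 5 and Eef1d were separated from their neighbours in the order by more than this spread on merged exon length. The WT values of Pabpc1 (42.3 and 38.1) and Naca (38.6 and 32.9) overlapped. The order was the same in 3 libraries, and in mTOR Tg replicate 1 Naca (42.7) stood above Pabpc1 (32.5). With the longest annotated transcript as the length, Tpt1 (1069 over all libraries) and Eef2 (843) changed places. Eef1b2 and Pabpc1 were then not separated, at 85.7 ± 3.46 and 90.2 ± 6.63 in WT (SD, n = 2), and Pabpc1 and Eef1d (29.2 ± 1.29) were more than 2 times as high as on merged exon length. Merged exon lengths of Naca, Pabpc1 and Eef1d (6805, 6540 and 6488 bases) include exons of longer forms, so their levels per kilobase may be understated. For Naca the longest transcript is 6745 bases, so its WT level was 36.1 on that length too. Its place in the order may therefore be too low on either length.

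Ratios of reads within a library do not depend on the scaling, and 10 such ratios were computed. For each 100 reads of Eef1a1 there were 59.3 and 58.1 reads of Eef2 in WT and 62.0 and 61.7 in mTOR Tg. The mTOR Tg libraries were alike here, both above WT by 0.08 and 0.07 on the log2 scale, where the WT replicates differed by -0.03. The exact 95% counting intervals were 58.6 to 59.96 and 57.4 to 58.7 in WT. In mTOR Tg they were 61.3 to 62.6 and 61.1 to 62.4, with no overlap between the groups, but they cover counting error only. For Eef1d against Eef1b2, the 2 exchange subunits, there were 50.3 and 49.98 reads per 100 in WT and 54.1 and 54.3 in mTOR Tg. The exact 95% counting intervals, 47.3 to 53.4 and 47.0 to 53.1 against 51.5 to 56.9 and 51.2 to 57.6, overlapped. Of the 7 ratios to Eef1a1, 4 (Eef2, Eef1d, Eef1g and Pabpc1) did not overlap between the groups. The same held for 29.9% of all genes tested when set against Eef1a1. With 2 libraries against 2, an exact two-sided permutation test cannot go below p = 0.333, so that test cannot reach 0.05, and the ratios are given as a description. Eef1g per 100 Eef1b2 reads was at 216 and 204 in WT and 199 and 221 in mTOR Tg, with the mTOR Tg libraries on either side of WT.

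Transcript length moved with the difference of mTOR Tg replicate 1 from WT. Genes in the shortest quartile of merged exon length had a median of 0.42 above the WT mean in this library, and those in the following quartiles 0.11, -0.10 and -0.47. In mTOR Tg replicate 2 the 4 quartile medians lay between -0.0031 and 0.0027. Of the 8 genes, Eef1a1, Eef1b2, Eef1g and Tpt1 belong to the shortest quartile, Eef2 to the next and Eef1d, Pabpc1 and Naca to the third. Eef1b2 (0.42), Eef1g (0.35) and Eef2 (0.15) lay near the median of their quartile, Tpt1 (0.30), Eef1a1 (0.07) and Pabpc1 (-0.31) below it, and Eef1d (0.53) and Naca (0.26) above it. After the correction for length and GC content, mTOR Tg replicate 1 was 0.80 above the WT mean in Eef1d, 0.40 in Naca and 0.36 in Eef1b2. The other 5 then lay between -0.17 (Eef2) and 0.08 (Pabpc1). The median over the 8 in this library was 0.08 in place of 0.28. The corrected values of Eef1d, Naca and Pabpc1 rest on merged lengths that may exceed those of the forms present. By longest annotated transcript, Pabpc1 (2916 bases) belongs to the second quartile, with a median of 0.13 in this library.

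**Figure D3:**
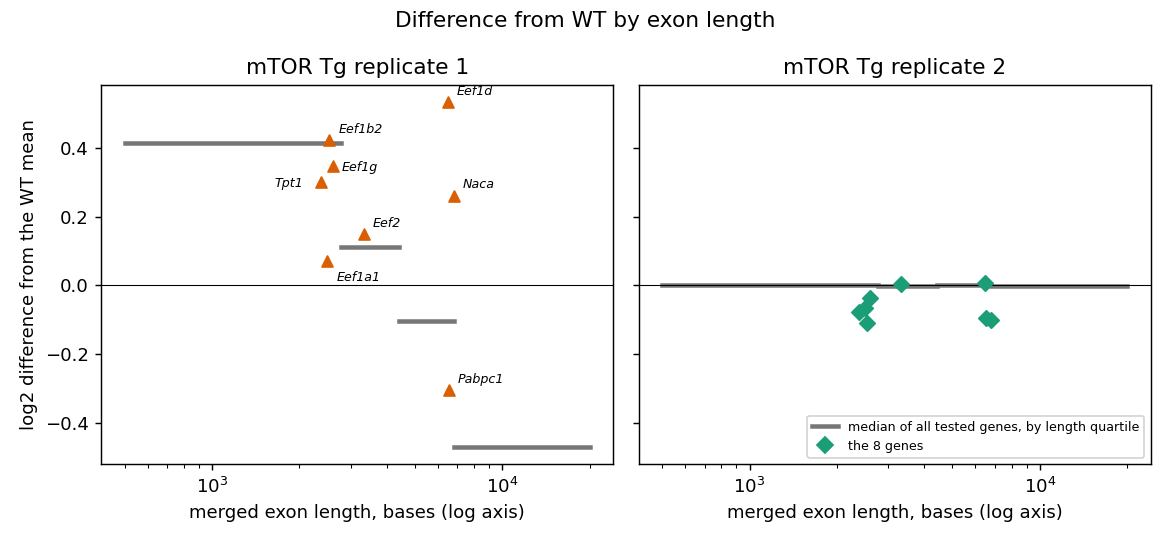
Log2 difference from the WT mean against merged exon length (log axis) for the 8 transcripts, with grey bars for the median of all tested genes in each length quartile (outer bars drawn from 500 and to 20000 bases). In mTOR Tg replicate 1 the grey bars step from 0.42 to -0.47, and in replicate 2 they lie at 0.

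Airway cell markers also moved with mTOR Tg replicate 1. The 8 club cell markers, all detected, summed to 90519 and 97824 CPM in WT, to 172576 CPM in mTOR Tg replicate 1 and to 62196 CPM in replicate 2. The 8 ciliated cell markers summed to 1170 and 1365 CPM in WT and to 2816 and 1241 CPM in mTOR Tg, with none at 0. Their part in the values of the 8 genes was not tested. In such bulk samples, fewer cells of a type and less RNA per cell cannot be told apart. Mitochondrially encoded genes took 3.71% of counts in mTOR Tg replicate 1 and 4.75% to 4.97% in the other libraries.

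None of the wider TOP class passed the test. Ribosomal protein genes, the core of the class, had 0 of 78 called and a median log2 fold change of 0.20. Of them 77 were positive, against 50.9% of all genes tested. Their median exon length was 1754.5 bases, which falls in the shortest quartile. Their medians were 0.47 in mTOR Tg replicate 1, -0.14 in replicate 2 and -0.19 between WT replicates 2 and 1, the same signs as in the 8. Without mTOR Tg replicate 1 the median was -0.14 with 2 of 78 positive, and after the length and GC correction it was -0.02 with 35 positive. Rps29, Rps28 and Fau, small-subunit genes, had the smallest p. Rps29 was at 286 and 195 CPM for WT and 488 and 241 CPM for mTOR Tg. The 13 other TOP mRNAs tested, which include initiation factors and Rack1, Npm1 and Vim, had 0 called, 5 positive and a median of -0.03, with 0.01 and -0.07 in the mTOR Tg libraries. Impdh2, a purine synthesis enzyme, was at 47.6 and 44.2 CPM (WT) against 71.1 and 46.2 CPM (mTOR Tg). Eif2s3x, a subunit of the initiation factor eIF2, was at 101 and 102 against 72.5 and 96.5 CPM. Eif3f, a subunit of eIF3, was at 187 and 163 against 257 and 167 CPM. Rack1, a ribosome-bound scaffold singled out after its values were seen, was at 451 and 401 CPM in the WT libraries against 596 and 386 CPM in the mTOR Tg libraries.

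Partners and modifiers of the elongation factors had 0 of 21 called, with 12 positive and a median of 0.03. This list holds the diphthamide enzymes that modify eEF2 and the lysine methyltransferases of eEF1A. For this list and those that follow, the shares over all genes tested were 0% called and 50.9% positive. The first 3 genes given for each list are those of smallest p. Dph6 was at 14.3 and 13.7 CPM for WT and 10.5 and 10.8 CPM for mTOR Tg, with both mTOR Tg libraries below WT. Dph5 was at 2.75 and 3.39 against 4.42 and 3.78 CPM, and Eef1akmt4 at 1.59 and 1.87 against 3.34 and 2.20 CPM. Eif5a, the elongation factor that carries hypusine and is named after its values were seen, was at 277 and 276 CPM (WT) against 375 and 267 CPM (mTOR Tg), again with the high value in replicate 1 alone.

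Proteins that bind TOP tracts or poly(A) tails had 0 of 14 called, 3 positive and a median of -0.15, with -0.27 in mTOR Tg replicate 1 and -0.03 in replicate 2. Their median exon length was 6866 bases, against 2962 for the 8. Larp4, which protects poly(A) tails, was at 72.4 and 75.3 CPM in the WT libraries against 28.7 and 69.1 CPM in the mTOR Tg libraries. Pan2, of the deadenylase that trims tails, was at 35.5 and 33.6 against 24.1 and 32.3 CPM, and Larp1b at 21.7 and 22.3 against 18.2 and 19.1 CPM. Larp1 itself, named for its role in TOP mRNA control, was at 166 and 189 CPM for WT and 141 and 183 CPM for mTOR Tg, and its groups overlapped.

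Nascent chain partners had 0 of 9 called, 6 positive and a median of 0.07. Srp72, a subunit of the signal recognition particle, was at 78.0 and 77.3 CPM (WT) against 51.8 and 65.6 CPM (mTOR Tg), Srp54b at 51.8 and 55.3 against 38.3 and 46.0 CPM, and Srp14 at 75.4 and 71.5 against 93.6 and 75.1 CPM. Nonsense-mediated decay factors had 0 of 11 called, 4 positive and a median of -0.13. Among them Upf2 was at 38.3 and 32.7 CPM in the WT libraries against 22.6 and 31.9 CPM in the mTOR Tg libraries, Smg6 at 51.1 and 52.3 against 46.4 and 37.2 CPM, and Smg8 at 25.1 and 22.7 against 20.8 and 18.9 CPM.

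**Figure D4:**
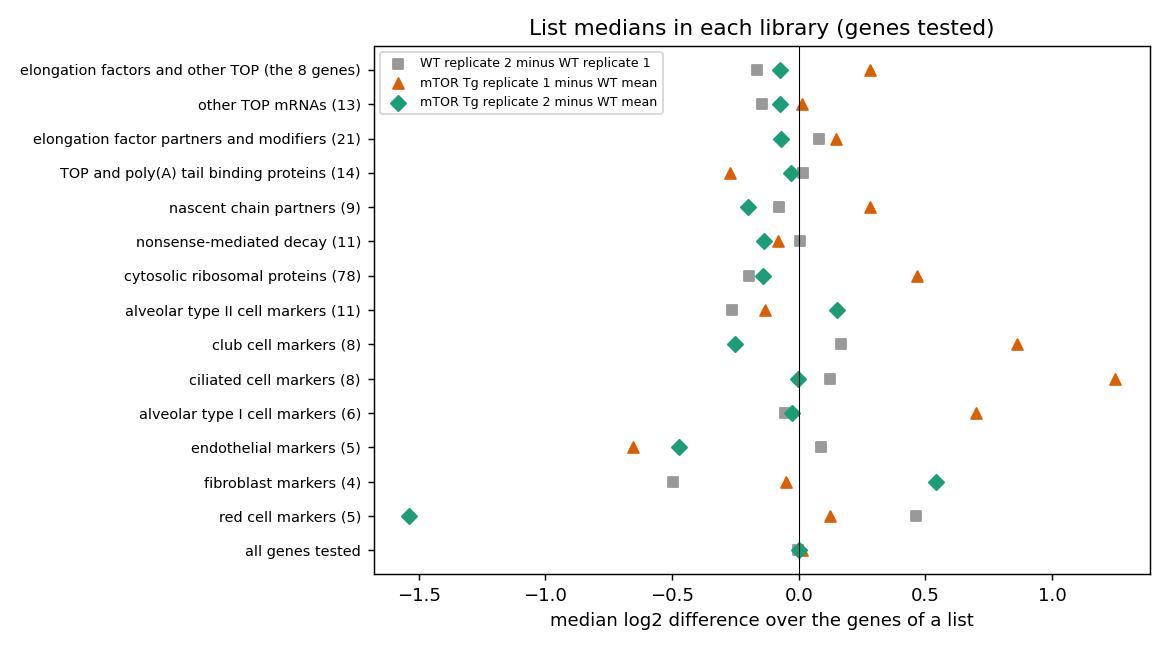
Median log2 difference over the tested genes of each list, for WT replicate 2 minus WT replicate 1 (squares), mTOR Tg replicate 1 minus the WT mean (triangles) and mTOR Tg replicate 2 minus the WT mean (diamonds), with the number of genes in parentheses. The 8 transcripts lie at -0.16, 0.28 and -0.07 and the ribosomal proteins at -0.19, 0.47 and -0.14.

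Among 3414 other genes with a mean of at least 50 CPM, ribosomal proteins left out, the pattern over the 4 libraries most like the median of the 8 was that of Btf3. The measure was the Euclidean distance between centred log2 CPM, and it was 0.021 for Btf3, the beta subunit of the same nascent chain complex as Naca. Btf3 is also on the list of other TOP mRNAs. The next were close behind: Cnn2 (0.025), Tubb5 (0.030), Marc2 (0.038) and Cox7a2l (0.042). Btf3 was at 191 and 165 CPM for WT and 216 and 170 CPM for mTOR Tg. There were 72.4 and 73.8 Btf3 reads per 100 Naca reads in WT and 74.2 and 75.1 in mTOR Tg. Within the 8, Tpt1 (0.03), Naca (0.04) and Eef1g (0.06) were nearest to the median pattern and Pabpc1 (0.50) was farthest.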

How the data were processed

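The submitters' processing notes name HISAT2, edgeR and build mm10, without versions. The labels name no counting program or annotation. The deposited values are raw counts for each gene symbol in 4 libraries of 18146693 to 21972124 counts, tied to samples by the names in the labels. Of 25759 symbols, 13306 passed filterByExpr (minimum count 10). Libraries were scaled with TMM. edgeR 4.0.16 (R 4.3.3, glmQLFit and glmQLFTest) compared mTOR Tg with WT over all genes, with Benjamini-Hochberg adjustment and a threshold of 0.05. The 95% intervals of fold changes use the test's standard error and degrees of freedom. Log2 CPM used a prior count of 2. DESeq2 1.42.0 and limma 3.58.1 (voom) were alternatives, beside other scalings, filters, libraries left out, a replicate block, and a length and GC correction by smooth trends (mgcv 1.9.3). A symbol matched 1 GENCODE M21 gene (GRCm38, the assembly called mm10) for 97.0% of symbols, which gave lengths and positions. The code was tested on simulated counts.

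The 8 genes were all to be named, with up to 3 genes of smallest p from each other list. The members and lists were chosen with earlier results of these data known. Lists of 15 other snoRNA host genes and 18 snoRNAs were not analysed here. The 3 leading genes of the cell type marker lists are left out, since those lists serve only to describe the samples. Their sums in WT and then mTOR Tg, in the order of replicates, were 2133, 1989, 2326 and 2191 CPM for type I cells, 107, 118, 65.5 and 57.6 CPM for endothelial cells, 33.9, 23.0, 24.9 and 46.4 CPM for fibroblasts, and 2548, 3683, 3235 and 1041 CPM for red cells.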

Additional observations from a re-analysis of the deposited data

How the results depend on the processing

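The edgeR test called 0 genes, against 12 in DESeq2 and 37 with the replicate block. Replicate numbers are not known to pair the samples (r = 0.07 between the deviations of same-numbered libraries). With 1 library left out the count ran from 11 to 6200, and the count among the 8 genes from 0 to 4, without calls among the 8 under any other setting, replicate block included. The median of the 8 in mTOR Tg replicate 1 was 0.078 after the length and GC correction, against 0.28. Signs turned, with no call, for Eef1a1 with DESeq2's size factors (-0.0038), in DESeq2 (-0.0038), on library totals (-0.064) and after the length and GC correction (-0.066), and after that correction for Eef2 (-0.089), Tpt1 (-0.073) and Pabpc1 (0.0018). Leaving out 1 library gave log2 fold changes from -0.085 to 0.088 for Eef1a1, -0.11 to 0.42 for Eef1b2, -0.039 to 0.35 for Eef1g, -0.024 to 0.18 for Eef2, 0.0056 to 0.53 for Eef1d, -0.31 to -0.097 for Pabpc1, -0.11 to 0.26 for Naca and -0.081 to 0.30 for Tpt1. With the longest transcript as length, 2 of the 8 changed rank on the mean over all libraries. On the WT means Pabpc1 (90.2) also ranked above Eef1b2 (85.7). Letting a pyrimidine run begin within 10 bases of the start gave 2 genes in place of 1. DESeq2, limma-voom and the block give no value per library. The spread of the mTOR Tg pair, more than counting error, limits what could be called.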
